A study of Mus musculus with 12 samples.

Results

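The tRNA fragments of livers lacking NSun2 were compared between chronic carbon tetrachloride (CCl4) injury and the uninjured state. All 4 libraries of the 2 groups were used, of 12 in the series: 2 of NS-KO mice at D27 after repeated CCl4 and 2 of NS-KO mice given corn oil alone (D0). Every distinct read sequence was counted once, and 31722 of the 87699 sequences of the series had a read in these 4 libraries. The animals were male mice of a B6D2F1/Crl background, which derives from the C57BL/6 and DBA/2 strains. The NSun2 line was bred into this background, so its mice are not F1 hybrids. The age label was 8 to 12 weeks, with injection at 9 to 12 weeks. NS-KO mice were homozygous for a CRISPR/Cas9 deletion in NSun2, carried in all cells, and came from heterozygous parents, as did their WT littermates. CCl4, diluted to 40% with corn oil, was injected intraperitoneally at a dose volume of 2 mL per kg, repeatedly up to D27 or a single time for the D3 group. The series also holds WT livers at D0, D3 and D27 and NS-KO livers at D3, 2 libraries each, which are cited for comparison. No oil-treated group was taken at day 27, so CCl4 cannot be told apart from age, time or the number of injections. The labels put the oil-treated livers at Day 0, while another record of the study names control livers of the same numbers as oil, day 3. The table holds tRNA fragments alone, so neither the NSun2 transcript nor liver cell markers could be checked.

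A tRNA gene is transcribed with a 5′ leader and a 3′ trailer, which nucleases cut away before CCA is added to the 3′ end. The trailer ends in a run of T, and when it survives it is called a tRF-1. Cuts within the mature tRNA give 5′ fragments (tRF-5a, tRF-5b and tRF-5c, by length), 3′ fragments (tRF-3a and tRF-3b) and longer pieces cut in the anticodon loop (tiRNA-5 and tiRNA-3). Mitochondrial tRNAs are cut out of long polycistronic transcripts, in which the next gene often begins at the base after the tRNA, so a mitochondrial trailer can be the start of a neighbouring transcript. NSUN2 places 5-methylcytosine on tRNAs, mainly in the variable region, and tRNAs without this mark are known to be cut more readily under stress. CCl4 is converted in hepatocytes to a radical that kills them, and repeated dosing leads to fibrosis.

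Sequences that carry the results are given first, 5′ to 3′, as DNA letters. The 3 trailers below were among the most abundant reads or the clearest differences; the capital marks the last base of the read, which is where lengths differ.
mt-Val-TAC trailer: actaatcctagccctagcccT
mt-Val-TAC trailer, long: actaatcctagccctagccctacA
initiator Met-CAT tRF-1: tcggaggctttgtttT
The mt-Val-TAC trailer follows TrnV (GRCm38, MT:1025-1093) and is the start of the 16S ribosomal RNA gene mt-Rnr2 (MT:1094-2675). The initiator Met-CAT trailer follows the gene tRNA-iMet-CAT-1-1 at chromosome 3, 90475860-90475931 (n-TMcat11). All coordinates are those of the mature tRNA in GRCm38, and the strand is not given here. Next come a mitochondrial and a nuclear 5′ fragment, each among the most abundant, again with the last base in capitals.
mt-Ser-GCT 5′ fragment: aagaaagattgcaagaactgcT
Gly-CCC/Gly-GCC tRF-5c ending in C: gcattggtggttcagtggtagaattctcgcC
A last set shows pairs of trailer reads that differ at a single base, written in capitals, as examples of 4 sites that hold most of the single-fragment calls.
tRNA-Ala-CGC-2-1 trailer, G: gcagccggaattctGttt
tRNA-Ala-CGC-2-1 trailer, A: gcagccggaattctAttt
tRNA-His-GTG-2-1 trailer, C: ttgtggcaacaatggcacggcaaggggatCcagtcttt
tRNA-His-GTG-2-1 trailer, T: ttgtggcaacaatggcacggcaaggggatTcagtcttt
tRNA-His-GTG-2-3 trailer, T: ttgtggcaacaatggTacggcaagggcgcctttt
tRNA-His-GTG-2-3 trailer, C: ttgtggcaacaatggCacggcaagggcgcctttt
tRNA-Thr-AGT-1-2 trailer, A: ctttgtatcactgAagtctcttctgt
tRNA-Thr-AGT-1-2 trailer, T: ctttgtatcactgTagtctcttctgt

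Depth limits what single fragments can show. The NS-KO D0 libraries held 70818 and 46937 tRNA reads and the NS-KO D27 libraries 46973 and 57514, at the lower end of the series (46937 to 275568). Levels are given as CPM, the reads scaled to a library total of 1e+06 tRNA reads. A CPM of 20, the study's threshold for expression, was reached with 2 and 1 reads at D0 and with 1 and 2 reads at D27. Only 2446 sequences had a read in all 4 libraries. With 2 libraries per group an exact two-sided permutation test cannot go below p = 0.333, so shares of reads are given as values of every library and whether the groups overlapped. Replicates differed by more than sampling noise, with a chi-square per degree of freedom over fragment sums of 6.41 at D0 and 18.1 at D27. Whether the 2 libraries of a group came from separate animals rests on the study's description of independent biological replicates.

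Reads from trailers took a smaller share of the NS-KO libraries at D27. Trailers made up 29.6% and 36.03% of reads at D0 and 21.1% and 20.5% at D27, and both D27 values lay below both D0 values. Nuclear and mitochondrial trailers were both lower. Nuclear trailers took 11.2% and 14.1% at D0 and 7.88% and 8.40% at D27, while mitochondrial trailers took 18.4% and 21.96% and then 13.2% and 12.1%. In bulk liver, fewer cells of a type and less RNA per cell cannot be told apart, and shares add up to the whole, so a lower share of trailers raises the others. Reads inside nuclear tRNAs were higher, at 11.9% and 10.9% at D0 and 14.2% and 19.9% at D27. Reads from nuclear 5′ ends were 24.5% and 22.5% at D0 and 33.5% and 25.8% at D27, with the D27 replicates further apart than the groups. The share of nuclear 3′ ends overlapped between the groups.

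**Figure D1:**
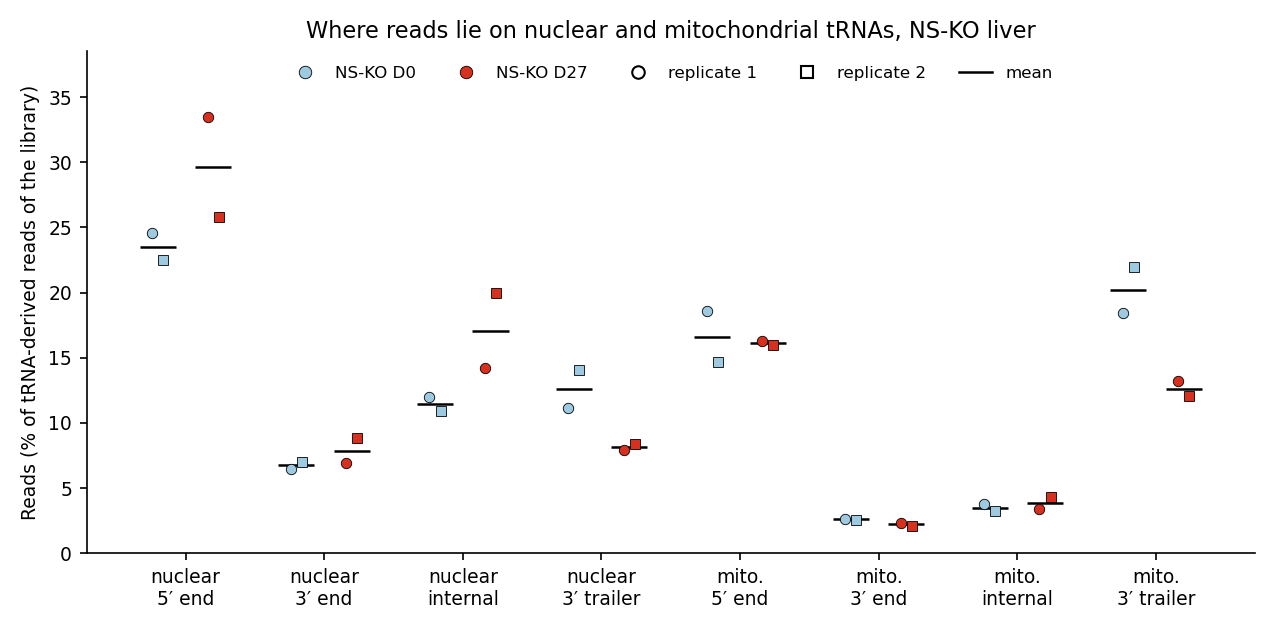
Share of tRNA reads (percent of the library, y axis) by place on nuclear and mitochondrial tRNAs (x axis) in NS-KO D0 (blue) and NS-KO D27 (red) libraries, with a circle for replicate 1, a square for replicate 2 and a bar for the mean. Both D27 libraries lie below both D0 libraries for nuclear and mitochondrial trailers and above them for nuclear internal and nuclear 5′ end reads.

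All mitochondrial reads together came to 43.7% and 42.7% at D0 and 35.4% and 34.8% at D27. That gap followed the mt-Val-TAC trailer: without it, mitochondrial reads were 28.6% and 23.5% at D0 and 23.97% and 25.2% at D27, and the groups overlapped. By the study's subtypes, tRF-1s were 8.70% and 10.7% at D0 and 5.13% and 5.85% at D27. Among the small classes, tRF-3b was higher at D27 (0.601% and 0.712%, then 0.917% and 1.02%) and tiRNA-3 lower (0.343% and 0.311%, then 0.290% and 0.2504%). Also higher in both D27 libraries were tRF-5b (0.532% and 0.599%, then 0.647% and 0.946%) and tiRNA-5 (1.77% and 1.57%, then 1.85% and 1.98%). The tRF-5c class overlapped, with 15.4% and 12.5% at D0 and 24.8% and 14.9% at D27. NS-KO D3 livers, which are set against the same D0 libraries, held a trailer share of 11.7% and 13.4%. In WT livers the share was 7.86% and 10.1% at D0, while the D3 libraries held 20.3% and 8.27% and the D27 libraries 12.3% and 5.37%, and these groups overlapped.

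The mt-Val-TAC trailer was the most abundant trailer in every one of the 4 libraries. Its reads made up 15.1% and 19.2% of the D0 libraries and 11.5% and 9.55% of the D27 libraries, a ratio of 0.613 of the means. The 21-nt form was read 2272 and 1992 times at D0 and 888 and 898 times at D27, that is 32082 and 42440 CPM and then 18904 and 15614 CPM. In the fit across 22065 single fragments (limma on log2 CPM with all 12 libraries) it fell by 1.26 on the log2 scale (SE 0.19, adjusted p = 0.040). The 24-nt form differed less, with 20009 and 20836 CPM at D0 and 17883 and 15857 CPM at D27 (log2 change -0.44, SE 0.22, adjusted p = 0.29). The length distribution of this trailer differed between the groups. Reads of 20 to 22 nt were 52.0% and 53.3% of mt-Val-TAC trailer reads at D0 and 43.2% and 41.4% at D27, and reads of 23 to 26 nt were 41.8% and 40.9% and then 51.0% and 52.4%. Nearly all reads began at the first base after the tRNA, from 99.98% to 100% in the 4 libraries. In WT livers the 20 to 22 nt share was 52.3% and 52.3% at D0 and 49.5% and 51.5% at D27. NS-KO D3 livers, which share the D0 controls, held 40.25% and 38.5% at 20 to 22 nt and 50.5% and 50.6% at 23 to 26 nt. Over all lengths, the sum of mt-Val-TAC fragments classed as Other did not pass the test (log2 change -0.76, SE 0.36, adjusted p = 0.30).

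The trailer of the initiator Met-CAT tRNA, which starts protein synthesis, was lower in both D27 libraries. The tRF-1 sum of Met-CAT was 47813 and 62616 CPM at D0 and 18500 and 25368 CPM at D27, with 3386, 2939, 869 and 1459 reads behind the values. Both D27 libraries lay far below both D0 libraries (log2 change -1.41, SE 0.28), yet the sum did not pass the limma test after adjustment (adjusted p = 0.077). It passed in limma with the 4 libraries alone (adjusted p = 0.0013) and with reads of 1 isodecoder (adjusted p = 0.047), and in the other settings adjusted p-values ran from 0.054 to 0.44. Its 16-nt form shown above had 1213 and 1165 reads at D0 and 304 and 536 at D27 (log2 change -1.56, SE 0.27, adjusted p = 0.087). NS-KO D3 livers, which share the D0 controls, held 10404 and 15480 CPM of this sum. In WT livers the sum was 8396 and 10459 CPM at D0 and 13665 and 6107 CPM at D27, and the 2 groups overlapped. The test of the difference between the NS-KO and the WT change gave a log2 difference of -1.3996 and an adjusted p of 0.23. Unlike mt-Val-TAC, the lengths of this trailer changed little: 16-nt reads were 46.2% and 50.6% at D0 and 51.8% and 50.8% at D27.

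Across trailers the picture was mixed. Of 27 precursors with at least 100 trailer reads in the 4 libraries, 11 (40.7%) were lower in both D27 libraries. In both, 3 (11.1%) were higher, and 13 overlapped. These counts use CPM without scaling for library composition. Of all 281 sums, 24.6% were lower and 27% higher after such scaling. The 19 nuclear ones had a median ratio of D27 to D0 of 0.834, with 7 lower and 3 higher. Lower nuclear trailers included tRNA-Arg-ACG-3-1 (8571 and 10844 CPM, then 2917 and 5894 CPM), tRNA-Cys-GCA-3-3 (3855 and 5220 CPM, then 2640 and 2834 CPM) and tRNA-Ser-TGA-1-1 (424 and 980 CPM, then 128 and 330 CPM). Trailers of tRNA-Arg-ACG-1-3, another gene of the same isodecoder, were 9306 and 8458 CPM at D0 and 9899 and 9615 CPM at D27, the opposite order. Among mitochondrial precursors, 4 of 8 were lower and none was higher. The mean length of nuclear trailer reads was 19.2 and 19.4 nt at D0 and 22.4 and 20.3 nt at D27.

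**Figure D2:**
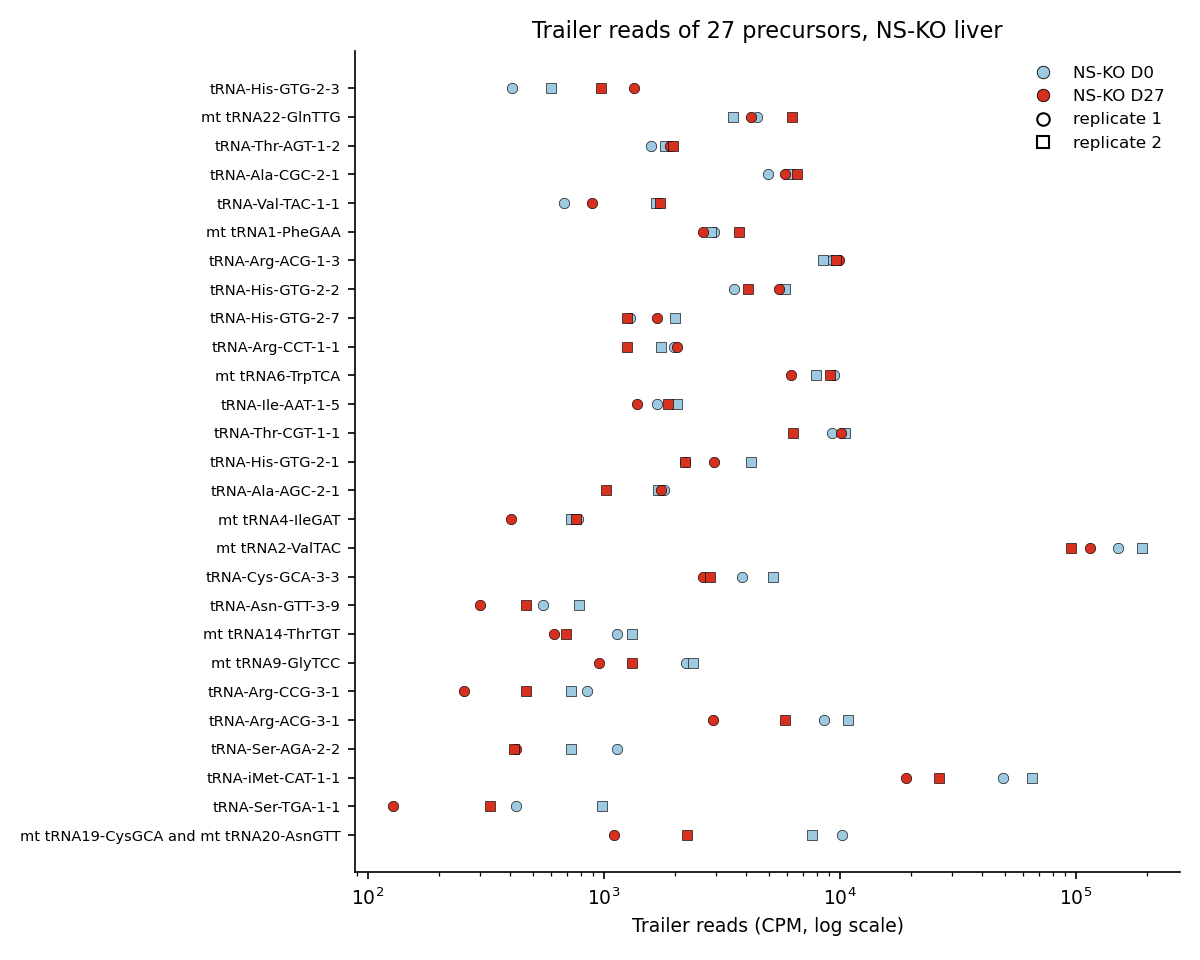
Trailer reads in CPM (x axis, log scale) of the 27 precursors with at least 100 trailer reads (y axis, ordered by the ratio of D27 to D0) in NS-KO D0 (blue) and NS-KO D27 (red), with a circle for replicate 1 and a square for replicate 2. The reads listed under both mt-Cys-GCA and mt-Asn-GTT lie farthest to the left relative to D0, and tRNA-His-GTG-2-3 farthest to the right.

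The lowest ratio belonged to reads between the mitochondrial genes TrnN (MT:5089-5159) and TrnC (MT:5192-5257). The gap between these genes holds the origin of light-strand replication, which folds into a hairpin. Its reads are listed under the precursors of both tRNAs. They are counted here as trailers, although the same read can lie in the trailer of a tRNA and the leader of the next. Reads of the sum Other mt-Asn-GTT/mt-Cys-GCA numbered 714 and 355 at D0 and 52 and 129 at D27. In CPM these were 10082 and 7563 and then 1107 and 2243, so the D0 libraries stood well above the D27 libraries. The log2 change of -2.52 (SE 0.62) was the largest of the 281 sums tested and did not pass (adjusted p = 0.088). It did pass in limma with library size alone (adjusted p = 0.0036), with the 6 NS-KO libraries (adjusted p = 0.0053) and with the 4 libraries (adjusted p = 1.1e-05), and did not in the other settings, where adjusted p-values ran from 0.085 to 0.44. Levels in WT livers were below those of NS-KO D0, at 710 and 384 CPM at D0 and 230 and 363 CPM at D27. NS-KO D3 livers held 6327 and 2898 CPM.

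Sums of the reads of a subtype and isodecoder carried more reads than single fragments, and 281 of them were tested. With an adjusted p of at most 0.05, none rose and 1 fell at D27, which is 0.356% of the sums, while 21 and 24 had an unadjusted p under 0.05 in the 2 directions. Without regard to a test, 76 sums (27%) were higher in both D27 libraries after scaling and 69 (24.6%) lower. The sum that fell was Other His-ATG, listed under the gene tRNA-His-ATG-1-1 (chromosome 1, 75052562-75052633). It had 15 and 8 reads at D0 and 1 and 1 at D27, which is 212 and 170 CPM and then 21.3 and 17.4 CPM (log2 change -2.28, SE 0.34, adjusted p = 0.019). Nearly all of it was a single 14-nt trailer sequence with the change C6G against the listed precursor in every library, positions being counted from 1 at the base after the mature tRNA. With 1 read in each D27 library it rests on few reads, and 3 reads correspond to 63.9 and 52.2 CPM there. In WT livers the 14-nt sequence had 18 and 18 reads at D0, in libraries of 266322 and 161485 reads. At D27 it had 7 and 4 reads in WT libraries of 156602 and 275568 reads. Relative to these totals, both WT D27 libraries also lay below both WT D0 libraries. NS-KO D3 livers held 9 and 10 reads of it. The call was lost with voom weights, with the NS-KO libraries fitted alone, and when any 1 of the 4 libraries was left out.

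**Figure D3:**
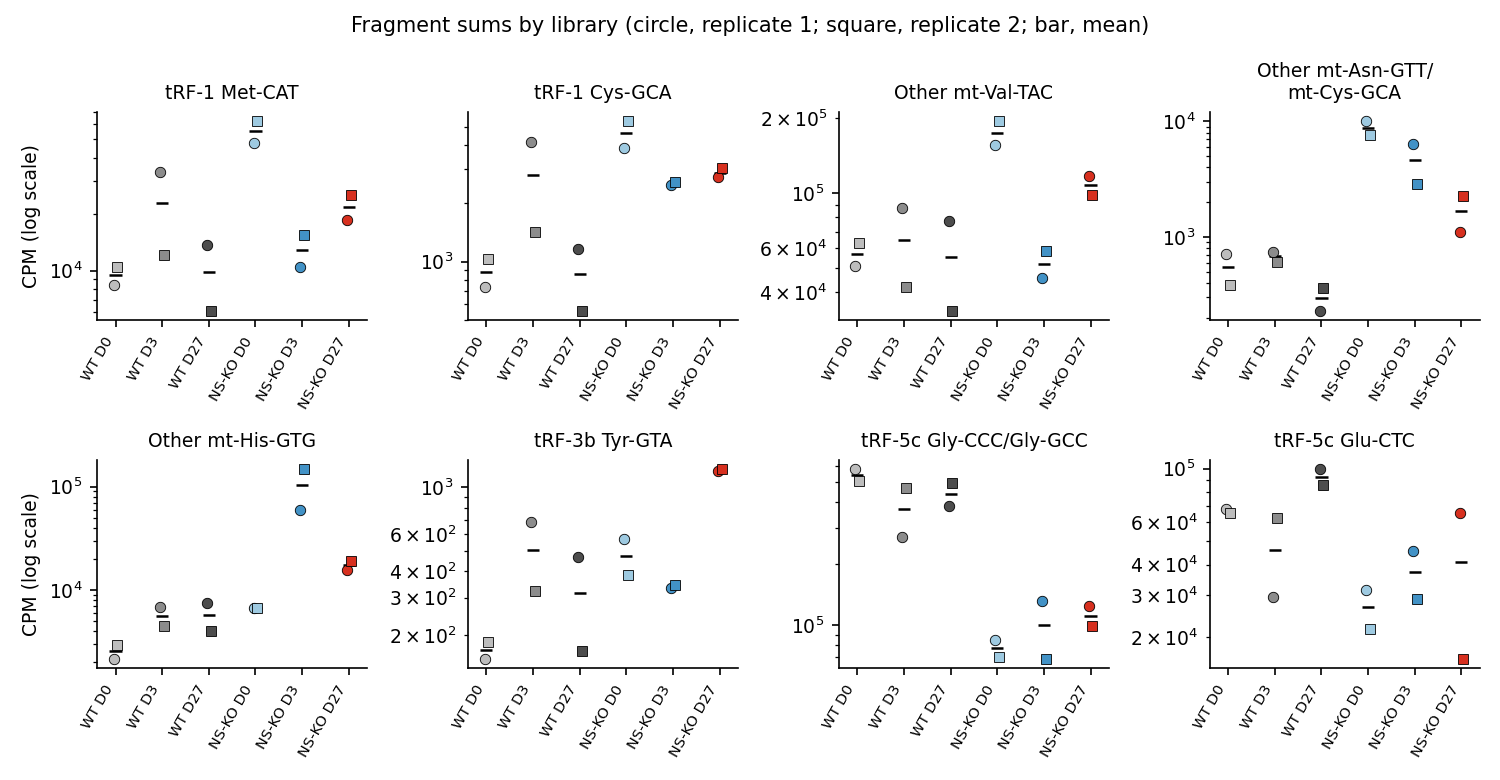
CPM (y axis, log scale) of 8 fragment sums in the 12 libraries (x axis, 6 groups), with a circle for replicate 1, a square for replicate 2 and a bar for the arithmetic mean. NS-KO D27 (red) lies below NS-KO D0 (light blue) in both libraries for the 3 trailer sums at the upper left and for mt-Asn-GTT/mt-Cys-GCA, above it for mt-His-GTG and tRF-3b Tyr-GTA, and the 2 D27 libraries of tRF-5c Glu-CTC lie on either side of D0.

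Among tRF-1s, 26 sums were tested and none passed. Their median log2 change was -0.33 against 0.00 for all sums. In both D27 libraries 4 (15.4%) were higher and 8 (30.8%) lower, beside 27% and 24.6% of all sums. The 9 tRF-1 isodecoders that the study singled out on these same libraries, and which are therefore no independent evidence, had a median of -0.39, with none higher and 4 lower. The tRF-1 sum of Cys-GCA was 3869 and 5348 CPM at D0 and 2725 and 3043 CPM at D27 (log2 change -0.72, SE 0.22, adjusted p = 0.12). Ser-AGA gave 1483 and 937 CPM and then 681 and 609 CPM (log2 change -0.92, SE 0.59), and Ile-AAT 2160 and 2471 CPM and then 1575 and 2173 CPM (log2 change -0.39, SE 0.28). For His-GTG the value was 960 and 1619 CPM at D0 and 1597 and 1078 CPM at D27, with a log2 change of 0.00 (SE 0.33) whose sign depended on the setting. Other isodecoders whose scaled values overlapped were Phe-GAA, Arg-CCT, Val-CAC and Gly-TCC.

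A few tRF-1s lay higher at D27. The sum of Gln-CTG, the isodecoder of the study's tRF-Gln-CTG-026, had 2 and 2 reads at D0 and 13 and 8 at D27, or 28.2 and 42.6 CPM and then 277 and 139 CPM (log2 change 1.82, SE 0.47, adjusted p = 0.094). NS-KO D3 livers held far more, with 118 and 79 reads. The 18-nt form that the study took forward is shown here beside the commoner 19-nt form, with the last base in capitals.
tRF-Gln-CTG-026: ttggtgtcaggctagttT
Gln-CTG tRF-1: ttggtgtcaggctagtttT
Both start at the base after tRNA-Gln-CTG-3-2 (chromosome 3, 96399059-96399130). The 18-nt form had 0 reads in all 4 libraries, which allows up to 42.4 and 63.9 CPM at D0 and 63.9 and 52.2 CPM at D27, and 11 reads in the 12 libraries. The 19-nt form had 1 and 2 reads at D0 and 8 and 4 at D27. Asp-GTC tRF-1 reads numbered 16 and 18 at D0 and 31 and 35 at D27 (log2 change 0.97, SE 0.48, adjusted p = 0.32). Thr-TGT had 1 and 0 reads at D0 and 3 and 5 at D27 (log2 change 1.58, SE 0.34, adjusted p = 0.077).

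The study also listed 68 tRF-1s, chosen on these libraries, of which 67 sequences are distinct. Together they came to 3205 and 3366 CPM at D0 and 2448 and 2452 CPM at D27, and both D27 values were lower. Of these sequences 61 were tested and none passed. In CPM, 8 of them were higher and 10 lower in both D27 libraries. After scaling for library composition the numbers were 5 (8.2%) and 12 (19.7%), beside 8.34% and 9.07% of all single fragments. No read in the 4 libraries was found for 11 of the 67 sequences, 9 of which were among those tested. At D3 the same sequences reached 7650 and 8576 CPM in NS-KO livers. In WT livers they were at 222 and 353 CPM at D0 and 632 and 174 CPM at D27.

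The mitochondrial tRNA mt-His-GTG was read at other places at D27 than at D0. Its share of all reads was 0.988% and 0.974% at D0 and 1.84% and 2.16% at D27. The sum Other mt-His-GTG was 6623 and 6626 CPM at D0 and 15647 and 19108 CPM at D27, with groups that did not overlap (log2 change 1.31, SE 0.38, adjusted p = 0.12). It passed in limma with the 4 libraries alone (adjusted p = 0.0013), and in the other settings adjusted p-values ran from 0.11 to 0.54. Reads that ended at the 3′ end of the tRNA made up 44.7% and 48.8% of mt-His-GTG reads at D0 and 19.5% and 15.9% at D27. Internal reads, which touch neither end, were 49.7% and 47.5% at D0 and 77.6% and 81.2% at D27. Internal reads that began at bases 15 to 20, in the region of the D loop, were 22.3% and 19.5% of mt-His-GTG reads at D0 and 49.5% and 46.0% at D27. A 31-nt read of this kind is printed here, its last base in capitals, because it had 0 reads in both D0 libraries and 11 and 9 reads at D27.
mt-His-GTG internal: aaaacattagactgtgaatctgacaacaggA
The same contrast in WT livers, which shares no library with it, ran the same way, with internal reads at 37.5% and 31.5% at D0 and 73.0% and 70.8% at D27. In NS-KO D3 livers the internal share was 95.2% and 96.5%.

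**Figure D4:**
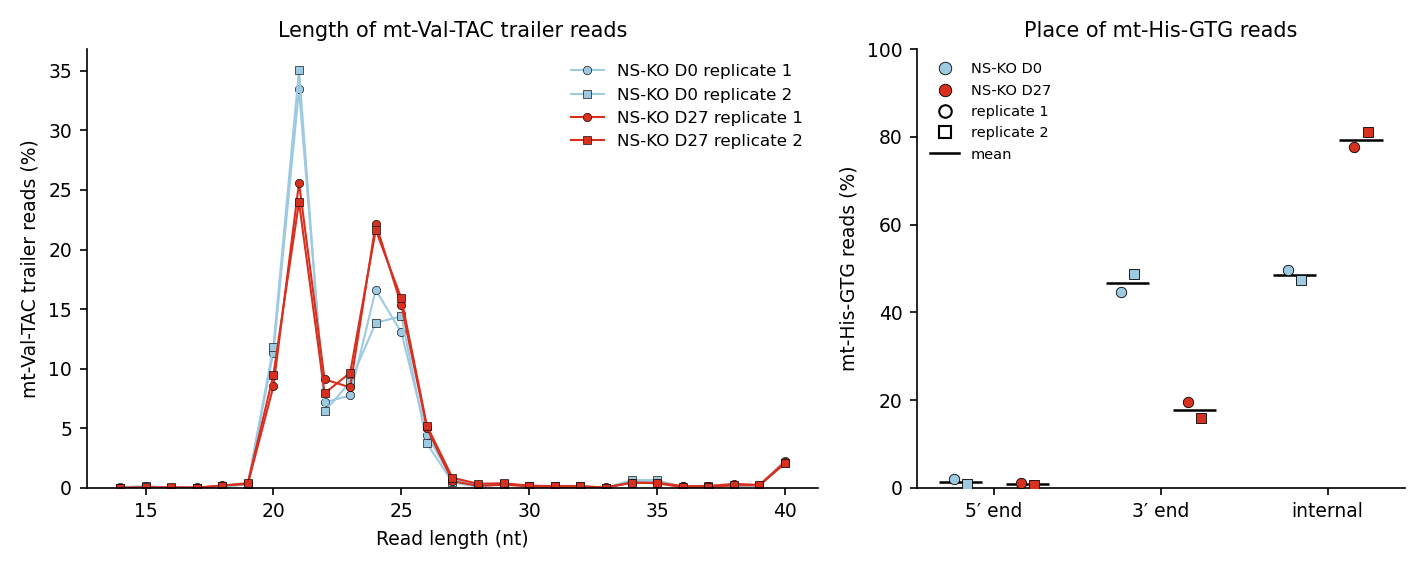
Left, length (x axis, nt) of mt-Val-TAC trailer reads as percent of those reads (y axis) in the 2 NS-KO D0 (blue) and 2 NS-KO D27 (red) libraries; right, percent of mt-His-GTG reads (y axis) that begin at the 5′ end, end at the 3′ end or are internal, with a circle for replicate 1, a square for replicate 2 and a bar for the mean. The 21-nt peak is lower and the 24-nt peak higher in both D27 libraries, and internal mt-His-GTG reads go from 49.7% and 47.5% to 77.6% and 81.2%.

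Mitochondrial sums as a set did not lie higher. Over 53 of them the median log2 change was -0.21, and none passed. In both D27 libraries 6 (11.3%) were higher and 19 (35.8%) lower, beside 27% and 24.6% of all sums. The most abundant, Other mt-Ser-GCT, was 182694 and 138377 CPM at D0 and 150618 and 148329 CPM at D27, which overlapped (log2 change -0.16, SE 0.37). Within its 5′ end reads, those of 32 nt or longer were 14.9% and 13.8% at D0 and 18.7% and 19.9% at D27, and those of 21 to 23 nt were 51.7% and 54.8% and then 48.1% and 43.6%. The 5′ fragment of mt-Pro-TGG, classed as tRF-5c, had 11 and 11 reads at D0 and 1 and 3 at D27 (log2 change -1.89, SE 0.45, adjusted p = 0.088). For mt-Gly-TCC, 15236 and 14381 CPM at D0 stood against 16116 and 13301 CPM at D27.

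Nuclear 5′ fragments had 65 sums, none of which passed, with a median log2 change of 0.22. In both D27 libraries 19 (29.2%) were higher, a share near the 27% of all sums, and 7 (10.8%) were lower, beside 24.6%. The largest, tRF-5c of Gly-CCC/Gly-GCC, whose isodecoders share the sequence printed above, was 84414 and 70179 CPM at D0 and 123944 and 98967 CPM at D27. Both D27 libraries were above both D0 libraries in CPM, but after scaling for library composition the values overlapped (log2 change 0.45, SE 0.76, adjusted p = 0.82). Fragments of 31 nt were 67.4% and 56.6% of these 5′ end reads at D0 and 55.5% and 48.1% at D27. For reads listed under Gly-GCC alone, tRF-5c stood at 8628 and 7116 CPM and then 17138 and 13023 CPM (log2 change 0.86, SE 0.64, adjusted p = 0.49).

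The D27 replicates disagreed on Glu-CTC. Its tRF-5c sum was 31532 and 21731 CPM at D0 and 65846 and 16292 CPM at D27, and the sign of the change turned with the replicate left out, from -0.89 to 1.399. Lys-CTT overlapped between groups too, with tRF-5c at 2104 and 1640 CPM and then 6727 and 2034 CPM (log2 change 0.92, SE 0.62). His-GTG tRF-5c overlapped as well, at 2076 and 1214 CPM and then 1980 and 2399 CPM.

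Short 5′ fragments of valine tRNAs were more even between replicates. The sum tRF-5a Gly-ACC/Val-AAC/Val-CAC was 635 and 618 CPM at D0 and 1213 and 1443 CPM at D27 (log2 change 0.98, SE 0.24, adjusted p = 0.088). For tRF-5b of Val-AAC/Val-CAC the values were 2259 and 2450 CPM and then 3002 and 4121 CPM (log2 change 0.50, SE 0.33, adjusted p = 0.45). The longer tRF-5c of the same tRNAs did not follow, at 15166 and 12187 CPM and then 16371 and 6277 CPM. Valine AAC, Gly-GCC and Asp-GTC tRNAs are methylated by DNMT2, another tRNA cytosine methyltransferase. Of the 32 sums that include any of these isodecoders, also joined with others, 16 (50%) were higher and 4 (12.5%) lower in both D27 libraries. Of all sums 27% and 24.6% were. Their median log2 change was 0.48 beside 0.00 for all sums, and none passed. In WT livers at D27 the median was 0.27 beside 0.01 for all sums. In NS-KO D3 livers, which share the D0 controls, it was 0.40 beside 0.12.

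Nuclear 3′ fragments had a median log2 change of 0.01 over 55 sums. In both D27 libraries 17 (30.9%) were higher and 12 (21.8%) lower, beside 27% and 24.6% of all sums. Fragments of Tyr-GTA classed as tRF-3b stood apart, at 565 and 384 CPM at D0 and 1192 and 1217 CPM at D27. Its 40 and 18 reads became 56 and 70 (log2 change 1.25, SE 0.29, adjusted p = 0.088). NS-KO D3 livers held 334 and 346 CPM of it. The tRF-3a sum of Val-AAC/Val-CAC had 1 and 1 reads at D0 and 4 and 13 at D27 (log2 change 1.88, SE 0.41, adjusted p = 0.077). Of the 83 nuclear sums classed as Other, 30 (36.1%) were higher and 24 (28.9%) lower in both D27 libraries, beside the same 27% and 24.6%. Their median log2 change was 0.04.

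Among single fragments, 12 of 22065 passed (0.0544%), 5 higher and 7 lower at D27, while 981 and 1069 had an unadjusted p under 0.05 in the 2 directions. Of the 12 calls, 9 were trailer reads that carried a second base at 1 of 4 sites, of which examples are printed in pairs above; 3 of the printed reads are among the calls. Of 10 sites with enough reads, these 4 were kept because the second base was at 0 in both NS-KO D0 or both NS-KO D27 libraries only. The 0 in 1 group was thus set by the choice of sites. Positions are counted from 1 at the base after the mature tRNA, and the base of the listed precursor comes first. At G16A of tRNA-Ala-CGC-2-1 (chromosome 2, 57182078-57182149), the A was seen in 145 of 344 and 123 of 273 reads at D0 and in 0 of 273 and 0 of 373 reads at D27, which allows up to 1.099% and 0.804%. All 5 calls at this site were reads with A, lower at D27. The other 3 sites went the opposite way.

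At C30T of tRNA-His-GTG-2-1 (chromosome 2, 122375494-122375565), the T was in 0 of 156 and 0 of 198 reads at D0, which allows up to 1.92% and 1.52%, and in 64 of 138 and 61 of 126 reads at D27. The neighbouring gene tRNA-His-GTG-2-3 (chromosome 2, 122377968-122378039) had C at T16C in 0 of 29 and 0 of 28 reads at D0, which allows up to 10.3% and 10.7%, and in 41 of 62 and 37 of 55 reads at D27. At A23T of tRNA-Thr-AGT-1-2 (chromosome 11, 69037853-69037926), T was in 0 of 90 and 0 of 58 reads at D0, which allows up to 3.33% and 5.17%, and in 39 of 83 and 52 of 94 reads at D27. These floors and the intervals drawn cover counting error only, since reads without molecular identifiers are not independent molecules. Every library of the other groups held both bases at these 4 sites, except for NS-KO D3 at Thr-AGT-1-2, where 0 of 156 and 1 of 84 reads carried T. The intervals of the 2 libraries overlapped within NS-KO D0 and within NS-KO D27 at each site, whereas in NS-KO D3 they did not at Ala-CGC-2-1, with 24.1% and 34.0% of reads carrying A. Whether the mice of the groups differed in sequence at these genes was not tested, since no DNA was read.

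**Figure D5:**
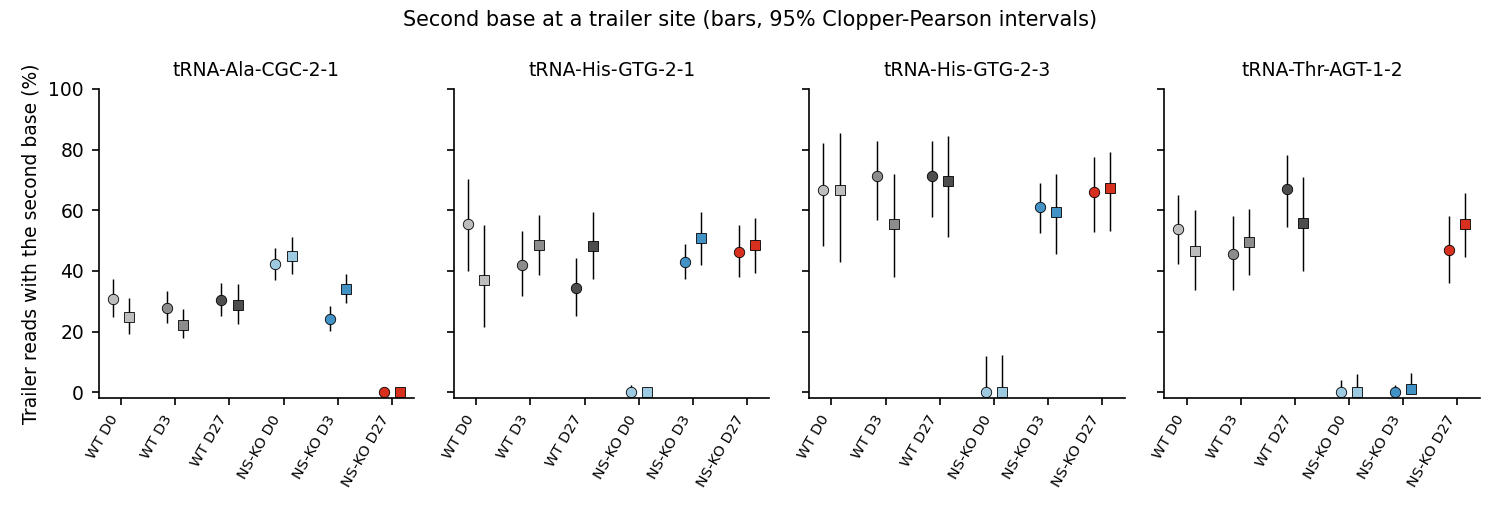
Percent of trailer reads across a site that carry the second base (y axis) at 4 trailer sites in the 12 libraries (x axis, 6 groups), with a circle for replicate 1, a square for replicate 2 and bars for 95% Clopper-Pearson intervals. The second base is at 0 in both NS-KO D27 libraries at tRNA-Ala-CGC-2-1 and in both NS-KO D0 libraries at the other 3 genes.

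When both bases of a site were added together, the trailers differed less between groups. For Ala-CGC-2-1 the reads across the site were 4858 and 5816 CPM at D0 and 5812 and 6485 CPM at D27, a ratio of 1.15. His-GTG-2-1 gave 2203 and 4218 CPM and then 2938 and 2191 CPM, a ratio of 0.799. Thr-AGT-1-2 gave 1271 and 1236 CPM and then 1767 and 1634 CPM, a ratio of 1.36. His-GTG-2-3 gave 409 and 597 CPM and then 1320 and 956 CPM, a ratio of 2.26, on 29, 28, 62 and 55 reads. With the bases merged, none of 22035 fragments passed in limma (980 and 1057 at an unadjusted p under 0.05).

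The remaining 3 calls were the 21-nt mt-Val-TAC trailer described above, a 15-nt form of the initiator Met-CAT trailer with a mismatch (5 and 6 reads at D0, 0 and 0 at D27) and a 35-nt internal fragment of Gly-GCC across the anticodon (0 and 0 reads, then 4 and 4). With perfect matches alone, the 21-nt mt-Val-TAC trailer was the single call (adjusted p = 0.029 in limma). With the bases merged or with the replicate number as a block it was not called. Nor was it called under the filterByExpr rule, with no filter on low values or with the 6 NS-KO libraries. Under the filterByExpr rule, limma called forms with another last base. The 21-nt mt-Val-TAC form ending in C had 390 and 343 reads, then 98 and 117 (adjusted p = 0.033). That ending in A had 407 and 374, then 120 and 136 (adjusted p = 0.045). A 15-nt initiator Met-CAT form had 181 and 150, then 24 and 43 (adjusted p = 0.0062). Of these, only the Met-CAT form was also called with the bases merged. The 2 other fragments of the main fit rest on 8 to 11 reads.

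The number of expressed tsRNAs depended on the depth of the library. At a CPM of at least 20 there were 4259 and 9758 at D0 and 10659 and 4482 at D27, and these followed whether 1 or 2 reads were needed. After thinning all libraries to 46937 reads the numbers were 9888 and 9758 at D0 and 10653 and 12823 at D27, a ratio of 1.19. With at least 2 reads after thinning they were 3068 and 3136 and then 3228 and 3784, so both thinned counts were higher in both D27 libraries.

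The NS-KO change was set against that of WT livers over the same time, 2 libraries against 2. None of the 281 sums (0%) passed the test of the difference in limma, although 15 higher and 16 lower sums had an unadjusted p under 0.05, and the smallest adjusted p was 0.23, and none passed with voom weights. Of single fragments 1 of 22065 passed (0.00453%), while 670 higher and 774 lower ones had an unadjusted p under 0.05. It was a 19-nt 5′ fragment of Arg-CCG with a mismatch, named after its values were seen, with 4 and 3 reads in NS-KO D0, 0 and 0 in NS-KO D27, 0 and 0 in WT D0 and 7 and 12 in WT D27 (adjusted p = 0.048 in limma). The mismatch is a recurring second base, A for G at base 9 of tRNA-Arg-CCG-3-1. The A was in 7 of 10 and 6 of 8 reads in NS-KO D0 and 0 of 1 and 0 of 5 in NS-KO D27. In WT livers it was in 0 of 5 and 0 of 6 reads at D0 and 15 of 22 and 45 of 59 at D27. In WT livers the median log2 change of the tRF-1 sums was -0.04 against -0.33 in NS-KO livers, that of nuclear 5′ fragments 0.30 against 0.22, and that of mitochondrial sums 0.14 against -0.21. The mt-His-GTG sum changed by 1.14 in WT and by 1.31 in NS-KO livers, and tRF-3b Tyr-GTA by 0.72 and 1.25. The difference between the NS-KO and the WT change was 0.17 for mt-His-GTG (adjusted p = 0.87) and 0.53 for Tyr-GTA (adjusted p = 0.63).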

How the data were processed

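Liver RNA of 14 to 40 nt was sequenced (tsRNA-seq) after deacylation, removal of 3′ cyclic phosphate, 5′ phosphorylation and m1A and m3C demethylation. Per the labels and the study's methods, the authors checked reads with FastQC, trimmed them with cutadapt and aligned them with Bowtie, allowing 1 mismatch, to mature and then to precursor tRNAs. Versions and genome build are not given in the sources used here. The deposited values are raw read counts, 1 per library for every distinct sequence, repeated under each tRNA it matches; here each sequence was counted once. A mismatch can be a modification, a sequencing error or a different gene, and near-identical tRNAs share reads, so isodecoders a read fits were joined.

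Fragments with a CPM of at least 20 in any library, and sums by subtype and isodecoder with at least 10 reads that met the filterByExpr rule, were fitted with limma 3.58.1 (R 4.3.3) on log2 CPM (prior count 2, TMM-scaled totals, intensity trend) with 6 group means over 12 libraries and 6 residual degrees of freedom. Benjamini-Hochberg adjustment covered all features fitted, with a threshold of 0.05. The code was tested on simulated data. Sites with a second base needed 40 such reads in all, 15% of reads, and 20 covering reads in each of the 4 libraries. This left 10 sites, of which the 4 shown had the second base at 0 in both libraries of 1 group only. Clopper-Pearson intervals are at 95%, and a count of 0 was bounded by 3 reads. Of 438 nuclear precursors, 370 coincided with a GRCm38 RefSeq tRNA gene. Named sums were all called ones, the 6 with the smallest p in a direction with fewer calls, the 15 most abundant, and tRF-1 and tRF-5 sums the study turns on. Members, lists and tests were chosen with earlier results of these data known. The sequence of 1 fragment is not reported here. Groups came from the labels, 2 libraries each; the authors' per-library alignments served only to check the table.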

Additional observations from a re-analysis of the deposited data

Results flagged for a closer look

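Of the 51 named sums, 3 had both NS-KO D27 libraries on one side of NS-KO D0 in CPM. Their WT D27 libraries both lay on the other side of WT D0. The remaining tested sums were not searched for this pattern. The tRF-1 sum of Gly-TCC was 424 and 256 CPM in NS-KO D0 and 255 and 104 CPM in NS-KO D27 (log2 change -0.95), against 3.75 and 18.6 CPM in WT D0 and 25.5 and 25.4 CPM in WT D27 (log2 change 0.92). The gap in NS-KO livers is 256 against 255 CPM, with 12 reads in each of those libraries, and the scaled values overlapped. The tRF-5b sum of Val-AAC/Val-CAC was 2259 and 2450 CPM and then 3002 and 4121 CPM in NS-KO livers (log2 change 0.50), against 680 and 731 CPM and then 581 and 392 CPM in WT livers (log2 change -0.52). For Gly-CCC/Gly-GCC, tRF-5c changed by 0.45 in NS-KO and by -0.29 in WT livers on the log2 scale. The test of the difference in limma passed in none of them, with adjusted p-values of 0.41, 0.41 and 0.78. Groups of 2 libraries are too small for a test of single outlying libraries.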

How the results depend on the processing

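The count of 12 single fragments called depended on nearly every choice, while the lower trailer share and the direction of most named sums did not. It was 78 with library size alone, 81 with voom weights, 1 with perfect matches, 0 with no filter, 0 with the 6 NS-KO libraries, 167 with the 4 libraries, 369 with a CPM of 20 in both libraries of a group and 48 with the filterByExpr rule. Merging bases at the 4 trailer sites, chosen after seeing the data, gave 0, and 5 under the filterByExpr rule. Leaving out 1 library gave 427 to 4283 calls, where the lone library of a group is assumed to vary like the other groups. The same-numbered libraries share only a number (correlation of deviations 0.02 over sums), and with the replicate number as a block 0 fragments were called, while 1 sum was called as before and no other call on the sums changed.

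Of the sums, 4 were called with library size alone, 0 with voom weights, 0 with perfect matches, 2 with the 6 NS-KO libraries, 6 with the 4 libraries, 2 with reads of 1 isodecoder and 0 to 0 with 1 library left out. Among 51 named sums, 36 kept their sign under all alternatives. The tRF-1 sum of His-GTG, near 0, turned to -0.013 with voom weights, -0.31 with perfect matches, -0.074 with the 6 NS-KO libraries, -0.043 with the 4 and -0.072 with reads of 1 isodecoder, and ran from -0.41 to 0.42 with 1 library left out. With perfect matches, tRF-1 Phe-GAA was -0.20 and tRF-1 Val-CAC -0.15. With 1 library left out, log2 changes ran from -0.0040 to 0.22 for Other Glu-CTC, -0.36 to 0.19 for Other mt-Gly-TCC, -0.42 to 0.10 for Other mt-Ser-GCT, -0.78 to 0.20 for tRF-1 Arg-CCT, -1.002 to 0.73 for tRF-5a Gly-CCC/Gly-GCC, -0.44 to 0.28 for tRF-5b Gly-ACC/Val-AAC/Val-CAC, -0.85 to 1.07 for tRF-5c Ala-CGC/Glu-CTC, -0.89 to 1.399 for tRF-5c Glu-CTC, -0.95 to 0.82 for tRF-5c Glu-CTC/Glu-TTC, -0.058 to 0.82 for tRF-5c His-GTG, -0.079 to 1.91 for tRF-5c Lys-CTT and -1.32 to 0.34 for tRF-5c Val-AAC/Val-CAC. The trailer share at D27 was 0.633 of that at D0, 0.751 when each expressed sequence was counted once and 0.709 with the mt-Val-TAC and initiator Met-CAT trailers left out of the total. The cause was not tested in any of these. No interaction was called among sums in any setting. Among single fragments 1 was called, 0 with library size alone, median-of-ratios factors, a prior count of 0.5, the replicate block, perfect matches or no filter, 1 with bases merged, 16 with voom weights, 23 with a CPM of 20 in both libraries, 6 with the filterByExpr rule (0 with bases merged) and 387 to 3575 with 1 library left out. The planned negative binomial count models were not run, since a check of units did not accept the deposited values, mixed with text lines, as counts. The values are raw read counts, so such models could have been fitted. Depth of 46937 to 70818 reads leaves fragments under 42.4 to 63.9 CPM at or below 3 reads.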
